A study of Mus musculus with 8 samples.

Results

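The macrophage identity transcripts described here are the messenger RNAs of 8 genes, Csf1r, Cx3cr1, Trem2, Ptprc, Irf8, Mpeg1, Lyz2 and Cd68, out of 4307 genes with a called m6A peak in at least 1 of 4 lists. The 8 genes were chosen by their peak counts in the TCP list set against the control list, with those counts already known. Their counts are therefore given as a description, without a test. A peak was counted for a gene when the gene held it on the same strand.

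The study mapped N6-methyladenosine (m6A) in RAW264.7 cells, an established mouse macrophage line, by sequencing RNA fragments pulled down with an m6A antibody (MeRIP-seq). Control cells received no compound, and the other cultures were exposed for 24 h to TBP, TCP or TIP, each at 100 µM. The labels do not spell out these abbreviations. Each condition has 1 immunoprecipitated library, whose peak list is used here, and 1 input library, which was not analysed here.

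All cells are of 1 transformed line grown in culture, so no animal or primary macrophage is represented. No condition has a replicate library, so no p-value can be given, and intervals are exact Clopper-Pearson intervals that cover counting error only. Read counts are not part of the lists, which leaves the depth of each peak unknown, and a gene without a peak is one in which none was called. Fewer methylated copies of a transcript and fewer copies in all cannot be told apart in these lists. The 3 comparisons with control use the same control library.

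m6A is written on messenger RNA during transcription, mostly around stop codons and in 3′ untranslated regions (3′ UTRs), and is bound by reader proteins that influence the stability and translation of the transcript. Macrophages are recognised by a set of receptors for growth factors, chemokines and lipids, by transcription factors that fix the myeloid lineage, and by proteins of the lysosome and of antimicrobial defence. In the macrophage lineage PU.1, the protein of the gene Spi1, is the factor that opens many of these genes. The 8 genes cover each of these roles.

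The lists held 4432 peaks in control, 6285 after TBP, 6981 after TCP and 3034 after TIP. These lay in 2478, 3128, 3398 and 1792 genes, or 57.5%, 72.6%, 78.9% and 41.6% of the 4307. The differences in list length touch every count below. The macrophage label was compared with marker genes of 9 other cell types: 0 of 45 such genes had a peak in any list. Of 57 other macrophage genes 29 had one, among them 7 of 24 surface receptors. The macrophage markers Adgre1 and Itgam had 0 peaks in every list, so a marker of the cells used can also lack a peak. The lists cannot show whether a gene without a peak was expressed.

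The 8 genes held 19 peaks in control, 25 after TBP, 30 after TCP and 18 after TIP. Against control, their peaks stood at a ratio of 1.32 after TBP, 1.58 after TCP and 0.947 after TIP, where the whole lists stood at 1.42, 1.58 and 0.685. The number of these genes with at least 1 peak was 6 in control, 8 after TBP, 5 after TCP and 3 after TIP. The TCP list thus had the most peaks in these genes while holding fewer of the genes than control. That order turned when every list was cut to the length of the shortest, with 17 peaks in control, 15 after TBP, 16 after TCP and 18 after TIP. At that cut 2 of the genes had more peaks in TCP than in control and 4 had fewer. Csf1r, with equal counts there, kept TCP peaks tied at the cut by file order. The share of all genes called at this cut is not given here, so nothing is read from these numbers about the 8 genes.

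The genes fell into 2 sets in the TCP list. The 3 genes absent from it, Lyz2, Trem2 and Cd68, held 5 peaks in control, 3 after TBP, 0 after TCP and 0 after TIP. The 5 genes with more peaks in it than in control, Csf1r, Cx3cr1, Mpeg1, Irf8 and Ptprc, held 14, 22, 30 and 18. The division was made on the control and TCP counts and did not use those of TBP and TIP. The counts of all lists were known when the genes were chosen, so TBP and TIP give no independent check. In TBP each of the 3 genes absent in TCP still had 1 peak. In TIP they had none, and neither had Irf8 or Ptprc.

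**Figure D1:**
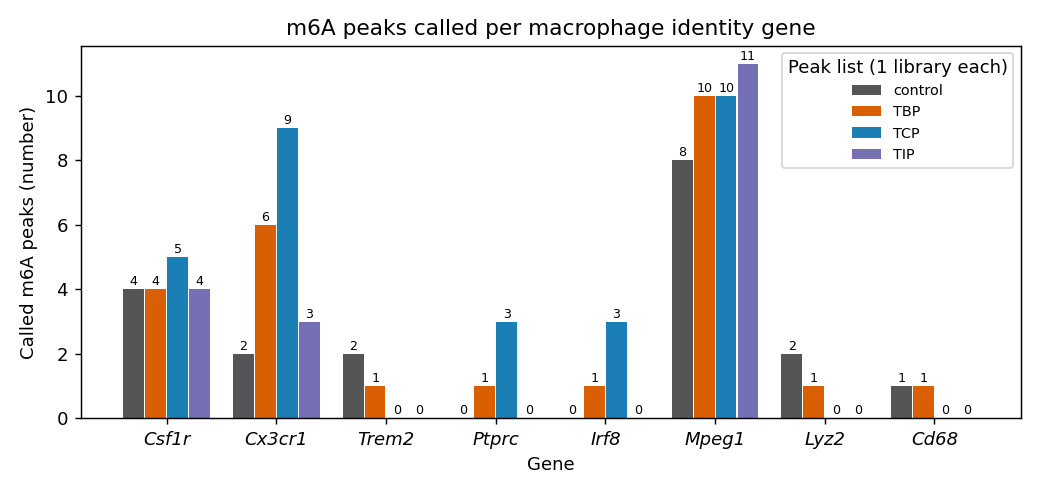
Bars give the number of called m6A peaks (vertical axis) in each of the 8 genes (horizontal axis), with 1 bar per list and 1 library per list. Mpeg1 had between 8 and 11 peaks in every list, Cx3cr1 ranged from 2 in control to 9 in TCP, and Lyz2, Trem2 and Cd68 had none in TCP or TIP.

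Across all genes with a peak in control or TCP, 34.7% had a peak in TCP and none in control, and 10.5% had the reverse. Of the 8 genes, Irf8 and Ptprc were of the first kind and Lyz2, Trem2 and Cd68 of the second. More peaks in TCP than in control were found in 57.7% of all genes and fewer in 17.8%, against 5 and 3 of the 8. These calls chose the genes, and nothing is read from them.

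In the TBP comparison, 30.3% of genes with a peak in either list had one in TBP and none in control, and 12% had the reverse, against 2 (Irf8 and Ptprc) and 0 of the 8. More peaks in TBP were found in 51.1% of genes and fewer in 20.6%, against 4 and 2 of the 8. The 4 were Cx3cr1, Mpeg1, Irf8 and Ptprc, and those with fewer were Lyz2 and Trem2. The share with more peaks in TBP was close to that of all genes.

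In the TIP comparison, 11.7% of genes had a peak in TIP and none in control and 36.2% had the reverse. Of the 6 genes with a peak in either list, 0 were of the first kind and 3 of the second. More peaks in TIP were found in 19.3% of genes and fewer in 53.9%, against 2 (Cx3cr1 and Mpeg1) and 3 of the 6. TIP was the only list in which fewer peaks than in control was the more frequent outcome over all genes.

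By presence over the 4 lists, Lyz2, Trem2 and Cd68 shared the pattern of control and TBP alone, which 3.34% of the 4307 genes had. Irf8 and Ptprc shared the pattern of TBP and TCP alone, which 10.9% had. Csf1r, Cx3cr1 and Mpeg1 had peaks in all 4 lists, as did 29.8% of genes. These patterns contain the control and TCP calls by which the genes were chosen.

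Csf1r encodes the receptor for the growth factors CSF1 and interleukin-34, on which most macrophages depend for survival. The gene spans 25.6 kb on the plus strand of chromosome 18, 61105572 to 61131139 (GRCm38). It had 4 peaks in control, 4 after TBP, 5 after TCP and 4 after TIP, so the counts differ by at most 1 peak. With every list cut to its 3034 best-scored peaks the counts were 4, 2, 4 and 4, and the difference between TCP and control was gone. The TCP count included both peaks of rank 2827, which were tied at the cut and kept by file order, so that equality rested on the order. With a minimum at each list's median score the counts were 2, 2, 4 and 2.

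What set the lists apart in Csf1r was where its peaks lay. The best-scored control peak was in the 3′ UTR, at 61130526 to 61130600, where it ranked 95 of 4432 by the authors' score (2.14% of the list). The TBP peak there, 61130501 to 61130600, ranked 53 of 6285 (0.843%), and the TCP peak, 61130551 to 61130600, ranked 505 of 6981 (7.23%). In TIP the 25 bp peak nearest to this place, 61130501 to 61130525, overlapped the TBP peak but not the control or TCP peak, and ranked 1959 of 3034. The best-scored TIP peak lay further downstream in the 3′ UTR at 61130701 to 61130825, among 301 tied peaks at rank 17.

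All 4 TIP peaks of Csf1r lay in the 3′ UTR, whereas 4 of the 5 TCP peaks lay in coding exons, in exons 3 and 10 of 22. Control had a peak of 895 bp annotated to exon 17, at 61128158 to 61129052 and rank 193, which no other list held. TCP had one of 1279 bp at exon 10, from 61117692 to 61118970, at rank 2827. Peaks wider than 500 bp made up 1.15% to 2.25% of the lists, and whether these cross introns was not tested. Without them the Csf1r counts were 3, 4, 4 and 4. A control peak of 25 bp in the 5′ UTR, 61105900 to 61105924, ranked 2610.

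Many Csf1r peaks carry the name of another gene in the authors' nearest-gene column. Those from exon 17 to the 3′ end are named Hmgxb3, and those in exons 10 and 12 are named Mir6983. By that column alone Csf1r would have had 1, 0, 2 and 0 peaks, and would have been absent from TBP and TIP. The gene holding the peak is used throughout.

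Cx3cr1 encodes the receptor for the chemokine fractalkine and lies on the minus strand of chromosome 9, 120048683 to 120068296. It had 2 peaks in control, 6 after TBP, 9 after TCP and 3 after TIP. The TCP count was the highest of the 4 and the control count the lowest. With lists of equal length the counts were 2, 4, 4 and 3, which kept the order of control against each compound and removed the difference between TBP and TCP. A further TCP peak, at rank 2827, was tied at the cut and left out by file order, so the equality of TBP and TCP rested on that order.

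All Cx3cr1 peaks lay between 1488 and 3613 bp from the annotated end of a 19.6 kb gene, in the 3′ UTR and in exon 2 of 3. Its strongest peak was in the 3′ UTR in every list. The control peak, 120051071 to 120051220, ranked 142 of 4432 (3.20%), and the TBP peak, 120051071 to 120051170, ranked 75 of 6285 (1.19%). The TCP peak, 120051021 to 120051120, ranked 134 of 6981 (1.92%). In TIP the same place held a pair of separate peaks, at ranks 399 (13.2%) and 890 (29.3%) of 3034. The higher count of Cx3cr1 in TIP than in control came from this split place. The place was thus among the best-scored 5% in 3 lists and lower in the order of the shortest one. The TIP scores took only 44 values. To 3 digits the TIP peak at rank 399 had the same score, 11.5, as TIP peaks at rank 17.

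A second place, in exon 2 at about 120051521 to 120051645, also carried a peak in all 4 lists, at 18.6% of the list in control, 9.85% after TBP, 13.2% after TCP and 15.5% after TIP. Cx3cr1 had no other control peak. TBP and TCP shared further peaks at 120051646 to 120051720, with the same boundaries in each, and near 120050171 to 120050245. TCP alone had 5 more, at ranks from 2827 to 5932, and TBP alone had peaks at ranks 1944 and 4234. Of these, the TCP peak at 120052296 to 120052320 directly adjoined the TBP peak of rank 4234. The TCP peak at 120051221 to 120051245 directly adjoined the control peak that ends at 120051220. Such neighbours share no base and so were counted as separate places. The peaks added in TBP and TCP therefore ranked below the places shared with control.

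**Figure D2:**
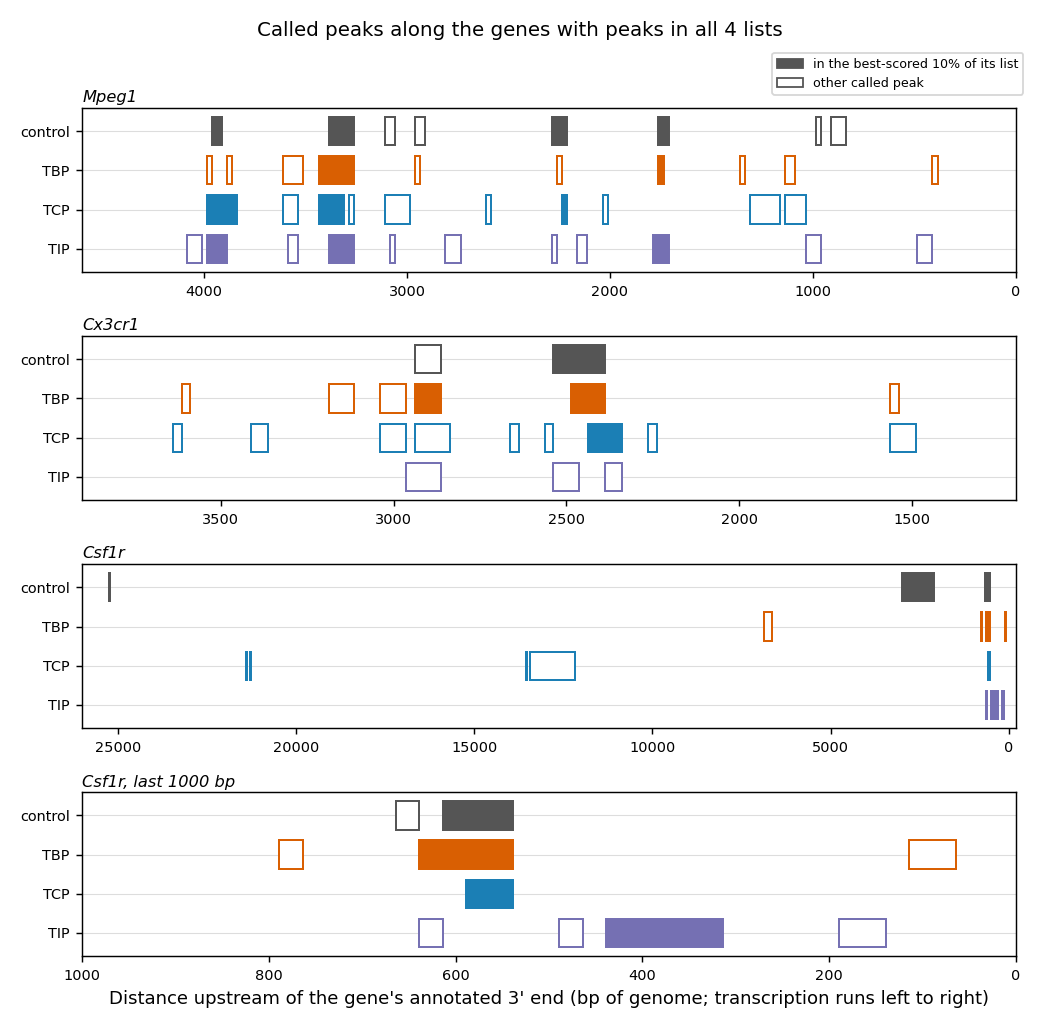
Boxes mark called peaks along Mpeg1, Cx3cr1, Csf1r and, enlarged, the 3′ end of Csf1r, with distance upstream of the annotated 3′ end in bp of genome on the horizontal axis and 1 row per list; filled boxes are in the best-scored 10% of their list. Cx3cr1 shows a filled 3′ UTR box in control, TBP and TCP, TCP has no box at the Mpeg1 3′ UTR place about 1711 bp from the end, and only TIP has a filled Csf1r box closer than 539 bp to the end.

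Trem2 encodes a lipid-sensing receptor of the macrophage surface that signals through the adaptor Tyrobp. It lies on the plus strand of chromosome 17, 48346401 to 48352276, and had 2 peaks in control, 1 after TBP, 0 after TCP and 0 after TIP. One control peak lay in the 5′ UTR, at 48346451 to 48346475 and rank 3291 of 4432. The other lay in the 3′ UTR, ending 25 bp before the end of the gene, at 48352202 to 48352251 and rank 2107 (47.5%). The TBP peak overlapped it, at 48352177 to 48352251 and rank 2789 of 6285 (44.4%). These peaks stand near the middle of their lists or below, so their absence elsewhere concerns peaks of ordinary score.

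Ptprc encodes CD45, the receptor tyrosine phosphatase carried by all nucleated blood cells. It is the longest of the 8 genes, 113 kb on the minus strand of chromosome 1, 138062859 to 138175756, and had 0, 1, 3 and 0 peaks in the control, TBP, TCP and TIP lists. The TBP peak lay in the last of 26 exons, at 138064686 to 138064710, and ranked 4741 of 6285 (75.4%). The TCP peaks lay in exons 15, 6 and 2, at ranks 4645, 5229 and 5229 of 6981 (66.5% to 74.9%). No place in Ptprc carried a peak in more than 1 list. With a minimum at each list's median score, or with equal list lengths, Ptprc had no peak in any list, so its gain rested on low-scored peaks.

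Irf8 encodes a transcription factor that directs progenitors towards monocytes and macrophages and partners with PU.1. It lies on the plus strand of chromosome 8, 120736358 to 120756694, and had 0 peaks in control, 1 after TBP, 3 after TCP and 0 after TIP, all in the 3′ UTR. The interval 120755540 to 120755614 was called with the same boundaries in TBP, at rank 1797 of 6285 (28.6%), and in TCP, at rank 1294 of 6981 (18.5%). TCP added 120755715 to 120755789 at rank 2604 and 120755165 to 120755189 at rank 5932. Irf8 kept a peak in TBP and 2 in TCP with equal list lengths, and the same numbers with a minimum at each list's median score. Among the 1317 genes with a peak in TCP and none in control, 80 (6.07%) had a strongest TCP peak that ranked as high as that of Irf8, and for Ptprc the number was 880 (66.8%). Each number includes the gene itself. Both genes were chosen by their TCP counts, so nothing is read from these numbers.

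Mpeg1 encodes perforin-2, a pore-forming protein that macrophages turn against engulfed bacteria. It lies on the plus strand of chromosome 19, 12460770 to 12465285, and spans 4.52 kb. It had 8 peaks in control, 10 after TBP, 10 after TCP and 11 after TIP, and was the only 1 of the 8 whose count was highest in TIP, the shortest list. Summed over the lists, its 39 peaks were matched or exceeded by 15 of the 4307 genes (0.348%), itself included. With equal list lengths the counts were 7, 6, 6 and 11, so the differences of TBP and TCP from control turned to 1 peak fewer, while TIP stayed above control. With a minimum at each list's median score they were 6, 6, 6 and 8.

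The Mpeg1 peaks fell at 19 places, of which 3 carried a peak in all 4 lists, all of them in exon 2 of 2. The first, 12461300 to 12461449, had its best peak at 6.52% of the list in control, 27.0% after TBP, 4.20% after TCP and 0.56% after TIP. The second, 12461850 to 12462024, stood at 7.81%, 6.56%, 2.21% and 0.56%. The third, 12463000 to 12463074, stood at 9.70%, 10.8%, 2.03% and 74.8%. The value of 0.56% is rank 17, which 301 TIP peaks shared. The first and second places each held 5 peaks from 4 lists, since TBP had separate peaks in the first and TCP in the second. Part of the Mpeg1 counts above control in TBP and TCP thus came from split peaks at places that control also held.

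The strongest Mpeg1 peak of control and TBP lay in the 3′ UTR, at 12463500 to 12463574, and was missing from the TCP list. It ranked 231 of 4432 in control (5.21%), 245 of 6285 in TBP (3.90%) and 17 of 3034 in TIP (0.56%). In TCP the nearest 3′ UTR peak was at 12463975 to 12464124, at rank 881 of 6981 (12.6%). Of the 1406 places with a peak in control, TBP and TIP, 162 (11.5%) had none in TCP. Among the 163 of them that ranked as high in control as this one, 11 (6.75%) had none in TCP. So a gene with more TCP peaks than control peaks also held a place without a TCP peak. The selection of these places was made after the values were seen.

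Lyz2 encodes lysozyme M, an enzyme that cuts bacterial cell walls and a much used marker of myeloid cells. It lies on the minus strand of chromosome 10, 117277541 to 117282272. It had 2 peaks in control, 1 after TBP, 0 after TCP and 0 after TIP, all in the 3′ UTR. The stronger control peak, 117277756 to 117277805, ranked 430 of 4432 (9.70%), and the TBP peak, 117277731 to 117277805, ranked 665 of 6285 (10.6%). A weaker control peak at 117278006 to 117278030 ranked 2107. The counts of Lyz2 were the same with equal list lengths and with a minimum at each list's median score.

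Lyz2 held the best-scored control peak of the 3 genes absent in TCP. Of the 397 genes with a peak in control and none in TCP, 9 (2.27%) had a control peak that ranked as high, where the number was 119 (30.0%) for Trem2 and 190 (47.9%) for Cd68. Each number includes the gene itself. The 3 genes were chosen by their TCP counts against control, so nothing is read from these numbers. Among the 345 genes whose strongest control peak ranked as high as that of Lyz2, 9 (2.61%) had no TCP peak, 11 (3.19%) no TBP peak and 24 (6.96%) no TIP peak. Of 390 places with a TBP peak and a control peak of that rank, 14 (3.59%) had a peak in neither TCP nor TIP. The Lyz2 place was 1 of these 14, a group selected after its values were known.

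Cd68 encodes macrosialin, a heavily glycosylated protein of late endosomes and lysosomes. It lies on the minus strand of chromosome 11, 69664213 to 69666170. It had 1 peak in control, 1 after TBP, 0 after TCP and 0 after TIP. The control peak in exon 3 of 6, 69665255 to 69665304, ranked 2610 of 4432 (58.9%), and the TBP peak, 69665280 to 69665304, ranked 4741 of 6285 (75.4%). Both ranked below the middle of their list by score, and with a minimum at each list's median score Cd68 had none in any list. With equal list lengths it kept its control peak and lost the one in TBP. Its absence from TCP thus rested on 1 peak of low rank.

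**Figure D3:**
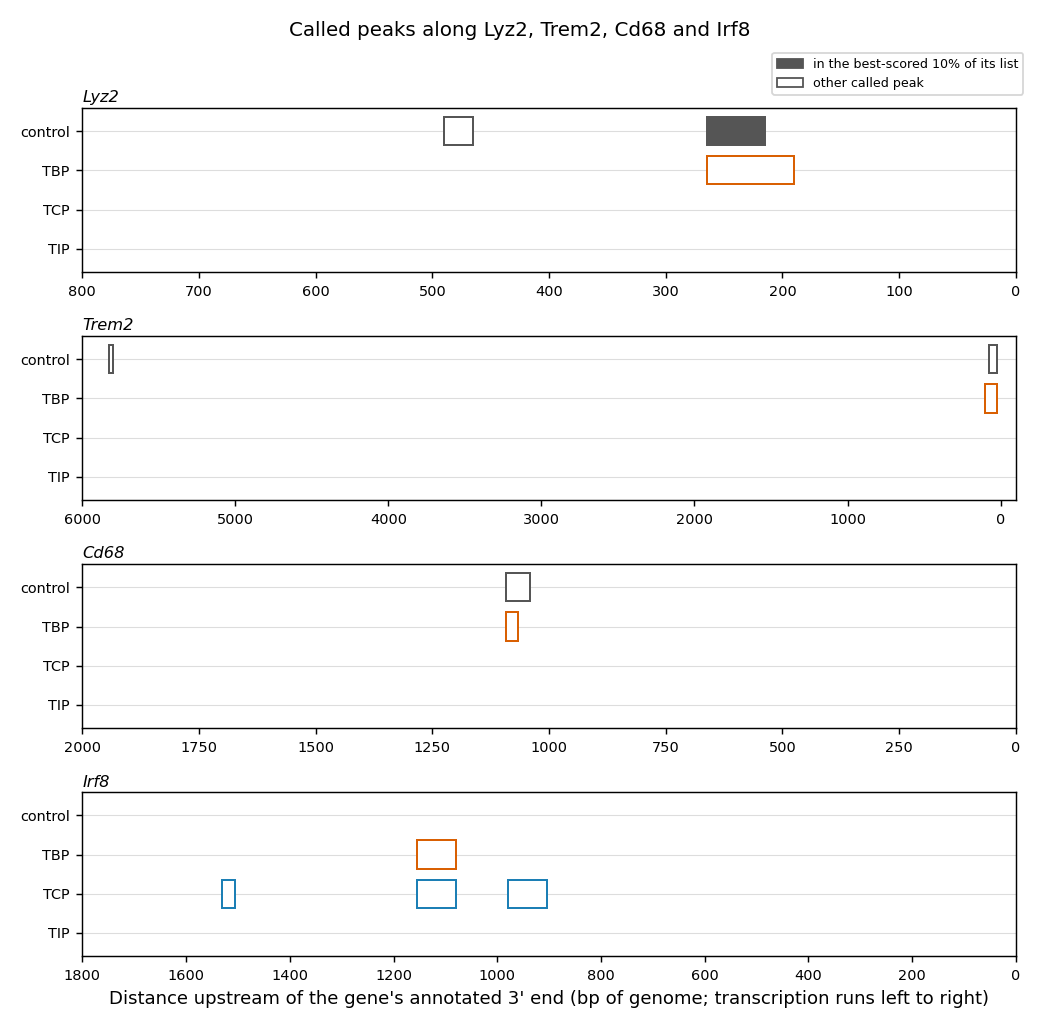
Boxes mark called peaks along Lyz2, Trem2, Cd68 and Irf8, drawn by distance upstream of the annotated 3′ end in bp of genome, with 1 row per list; filled boxes are in the best-scored 10% of their list. Lyz2, Trem2 and Cd68 have overlapping boxes in control and TBP and empty rows in TCP and TIP, and Irf8 has the same interval in TBP and TCP.

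**Figure D4:**
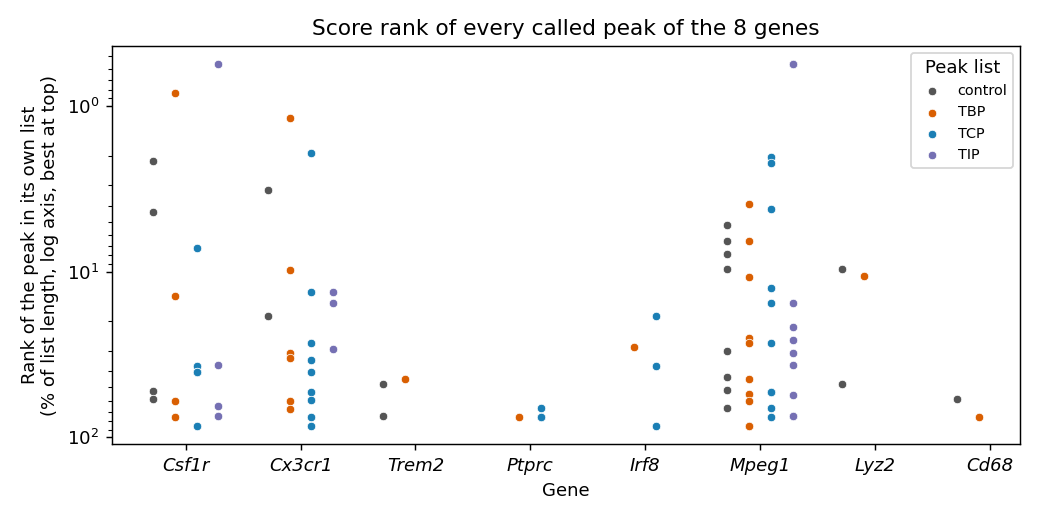
Each point is 1 called peak, placed by its score rank in its own list as a percentage of list length (log axis, best at the top), by gene and list; peaks of equal rank overlie one another. Csf1r, Cx3cr1 and Mpeg1 have points above 10% in at least 3 lists, Lyz2 has 1 point at 9.70% in control, and Trem2, Ptprc, Irf8 and Cd68 have none above 10%.

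The strongest peaks of the 2 sets are set side by side here as a description, since the control and TCP counts defined the sets. In control Irf8 and Ptprc had no peak, and the strongest peaks of the other genes with more TCP peaks stood at 2.14% (Csf1r), 3.20% (Cx3cr1) and 5.21% (Mpeg1) of the list, above those of Lyz2 (9.70%), Trem2 (47.5%) and Cd68 (58.9%). In TBP, Ptprc (75.4%) stood with Cd68 (75.4%) at the lower end, and Irf8 (28.6%) fell between Lyz2 (10.6%) and Trem2 (44.4%). In TIP the peaks of the 8 genes came from Csf1r, Cx3cr1 and Mpeg1 alone, the genes whose control peaks ranked highest.

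Gene length went with the division in part. The genes absent in TCP spanned 1.96 kb (Cd68), 4.73 kb (Lyz2) and 5.88 kb (Trem2), and those with more TCP peaks 4.52 kb (Mpeg1), 19.6 kb (Cx3cr1), 20.3 kb (Irf8), 25.6 kb (Csf1r) and 113 kb (Ptprc). Mpeg1 lay within the range of the first set. Over all genes, the median span was 18.2 kb for those with a peak in control and none in TCP and 26.5 kb for the reverse. It was 30.7 kb for genes with more peaks in TCP and 22.7 kb for those with fewer. The part of gene length in the division was not tested.

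Peaks of different lists that overlapped by at least 1 bp on the same strand were joined into places. The 92 peaks of the 8 genes made 56 places, of which 6 (10.7%) carried a peak in all 4 lists, 3 in 3 lists, 9 in 2 lists and 38 (67.9%) in 1 list. Over all peaks, 10.6% of 11753 places were in all 4 lists and 60.6% in 1. Peaks that adjoined without sharing a base counted as separate places, and no setting allowed a gap. An example is the Csf1r control peak at 61130476 to 61130500, beside TBP and TIP peaks that start at 61130501. A place in 1 list can therefore lie directly beside a peak of another list. The share of places common to all lists was thus near that of the whole data. The 6 were 3 in Mpeg1, 2 in Cx3cr1 and 1 in Csf1r, where the TIP and control peaks were joined through the TBP peak. Of the 14 places of Csf1r, 13 were in 1 list, against 10 of 19 in Mpeg1 and 7 of 11 in Cx3cr1.

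By annotation class, 9 of 19 control peaks of the 8 genes lay in 3′ UTRs, or 47.4% (95% interval 24.4 to 71.1), where the whole list had 50.9%. The share was 44.0% in TBP (24.4 to 65.1), 33.3% in TCP (17.3 to 52.8) and 50.0% in TIP (26 to 74), where the whole lists had 50.7%, 48.5% and 48.8%. In TCP, 20 of 30 peaks, 66.7% (47.2 to 82.7), lay in exons outside UTRs, against 47.6% of the list. Each of these intervals includes the share of its whole list, and peaks of 1 gene share a transcript. Of the 20, Mpeg1 held 8, Cx3cr1 5, Csf1r 4 and Ptprc 3. The only 5′ UTR peaks were those of Csf1r and Trem2 in control.

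The genes nearest to each well-covered member in peak counts, by the sum of absolute differences over the 4 lists, were in none of the macrophage lists used here. For Cx3cr1 (2, 6, 9 and 3 peaks in the control, TBP, TCP and TIP lists) they included Aftph (3, 7, 9 and 2) and Nin (2, 7, 8 and 4), each at a sum of 3. For Mpeg1 they were Ash1l at 6 (9, 14, 11 and 11), Fnip2 at 7 (7, 9, 8 and 8) and Nufip2 at 7 (6, 10, 9 and 7). For Csf1r, 5 genes tied at a sum of 1, among them Anapc1 (4, 5, 5 and 4) and Cdk13 (4, 4, 6 and 4). A profile like that of Cx3cr1 or Csf1r was therefore also found outside those lists, over only 4 libraries.

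Because PU.1 acts on many macrophage genes, the promoters of 7 of the 8 genes were searched for GAGGAA, the core of the PU-box that it binds, on both strands of the 250 bases before each start (RefSeq, GRCm38.p6; that of Csf1r was not used here). It was found in Cd68 and Trem2, both absent in TCP, and in 1 of 2 windows of Ptprc. It was not found in the windows of Lyz2, Irf8, Cx3cr1 or Mpeg1. The 3 genes with a match had 1 such window each, out of 9 windows searched in the 7 genes. Over all genes, 23.3% of 32851 windows held it. The 30 bases around each match are shown because the matches fall in both sets of genes; capitals mark the motif, which in Trem2 reads on the other strand as TTCCTC.
Cd68 promoter, chr11:69666378-69666407, minus strand: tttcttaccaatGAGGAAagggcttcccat
Trem2 promoter, chr17:48346349-48346378, plus strand: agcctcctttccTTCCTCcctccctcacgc
Ptprc promoter, chr1:138175446-138175475, minus strand: tgttttcctttaGAGGAAaattgagacgaa
The matches lie 225, 40 and 158 bases before the start to which the window belongs in Cd68, Trem2 and Ptprc. In Ptprc that start is an internal one, so the match lies inside the annotated gene span, which ends at 138175756. They describe letters in these windows and say nothing of binding in these cells.

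Other macrophage genes were listed by role, with earlier results of these data known. Of 57 such genes 29 had a peak in any list, 22 of them in control, 23 after TBP, 19 after TCP and 20 after TIP. Over all genes, 57.7% had more peaks in TCP than in control and 17.8% fewer. Of 8 transcription factor genes with a peak in control or TCP, 8 had more peaks in TCP, and their peaks numbered 14 in control and 27 in TCP. Of 12 lysosomal and secreted genes, 9 had fewer and 3 had more, with 25 peaks in control and 15 in TCP. The median difference was 1.0 peak for the first, −1.0 for the second and 1.0 over all genes with a peak in either list. The split of the lysosomal and secreted genes did not hold with a minimum at each list's median score, where 2 had fewer peaks in TCP and 3 had more; no test was made.

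Among the transcription factors, Zeb2, a zinc finger factor that maintains tissue macrophage identity, had 6, 9, 9 and 6 peaks in the control, TBP, TCP and TIP lists. Runx1, which is needed for blood stem cell formation, had 3, 5, 5 and 3. Spi1 itself had 1, 1, 2 and 0, and Mitf, a regulator of lysosomal genes, had 1, 4, 4 and 1. Irf8, chosen by its TCP count, had 0, 1, 3 and 0. In TIP none of the 7 transcription factors tested had more peaks than control, and 1, Spi1, had fewer. Over all genes, 19.3% had more peaks in TIP and 53.9% fewer.

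Among the lysosomal and secreted genes, Ctss, a cysteine protease that trims class II antigen complexes, had 1, 2, 0 and 0 peaks, and Gpnmb, a transmembrane glycoprotein of macrophage lysosomes, had 1, 1, 0 and 0. Spp1, the secreted protein osteopontin, had 1, 0, 0 and 0. Lgmn, the asparagine-specific protease legumain, had 2, 0, 1 and 0. Grn, the precursor of granulins, had 1, 2, 0 and 1, and Lamp1, a major lysosomal membrane protein, had 2, 3, 0 and 1. Lyz2 and Cd68, chosen by their TCP counts, went the same way as these. Ctsb, cathepsin B, did the opposite with 3, 4, 5 and 3, and Ctsl, cathepsin L, had 0, 0, 1 and 1. Cybb, the catalytic subunit of the phagocyte NADPH oxidase, had 8, 5, 4 and 5, its highest count being in control.

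Among the surface receptors, Cd14, the co-receptor for bacterial lipopolysaccharide, had 7, 7, 5 and 2 peaks, and Sirpa, the receptor for the "do not eat me" signal CD47, had 5, 4, 5 and 4. Fcgr1 and Clec7a, receptors for antibody and for fungal glucans, had 1 peak in each list. Of the 4 with a peak in control or TCP, 0 had more in TCP and 1 had fewer, where 57.7% of all genes had more and 17.8% fewer. Tyrobp, the adaptor of Trem2, had 0, 0, 0 and 1. With equal list lengths 3 transcription factor genes had more peaks in TCP and 0 fewer, and 6 lysosomal and secreted genes had fewer and 2 more. With a minimum at each list's median score 5 transcription factors had more peaks in TCP and 0 fewer. The shares of all genes called under the equal-length and median-score settings are not given here, so these counts stand without a comparison.

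**Figure D5:**
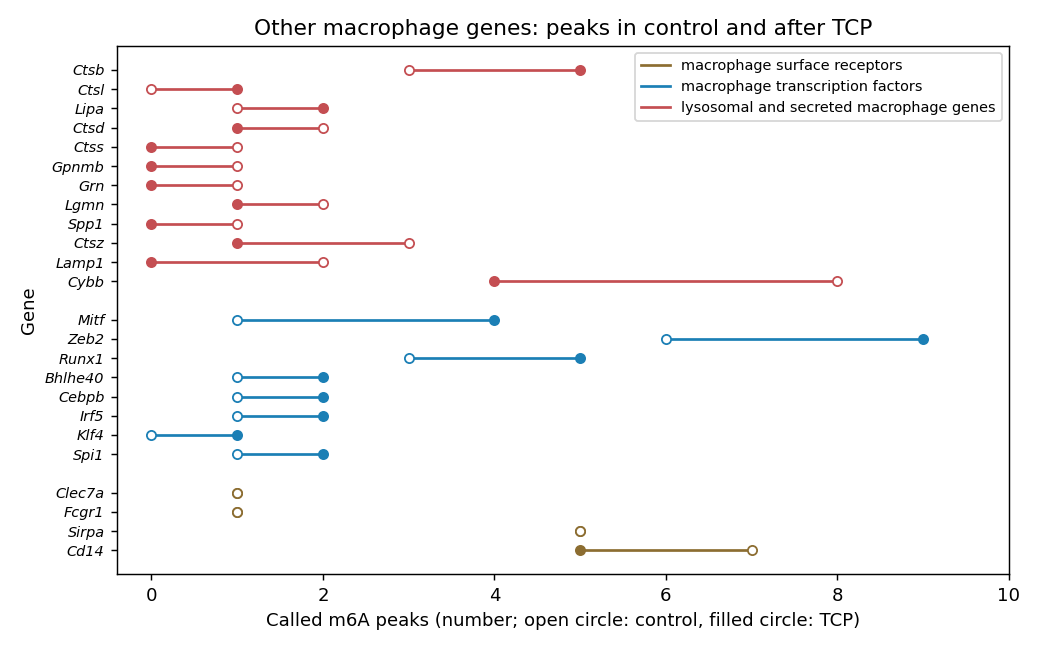
Each line joins the number of called peaks in control (open circle) to that in TCP (filled circle) for 1 gene of the lists of other macrophage genes with a peak in control or TCP; a single open circle means equal numbers. All 8 transcription factor genes have the filled circle to the right, and 9 of 12 lysosomal and secreted genes have it to the left.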

How the data were processed

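MeRIP-seq peak lists of 4 immunoprecipitated libraries were used, 1 per condition; the 4 input libraries were not analysed here. The deposited lists give each peak's position, width in bp, strand, annotation, nearest gene and a score. No scale is stated for the authors' score and its lowest value differs between lists, so it was used to rank peaks within a list, ties at their best rank. The submitters' processing notes name the build GRCm38 (mm10), ChIPseeker 1.26, DESeq2 1.30.1, deepTools 3.5.0, FastQC 0.11.9, HISAT2 2.1.0, HOMER 4.11, Picard 2.23.5, SAMtools 1.9, StringTie 2.1.4 and Trim Galore 0.6.5. Which caller and threshold made the peaks, and how input entered, is not given in the sources used here. Depth is unknown.

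A peak was given to the gene in its exon annotation, else to the nearest gene if inside it on the same strand, else to a single RefSeq gene span (GRCm38.p6). This placed 98.5% of 20732 peaks, and disagreed with the nearest-gene column for 21.5% to 22.9% of the peaks of a list. The RefSeq table carries no strand, which came from the lists and from the promoter table; where it was unknown, a single overlapping gene was taken. Placement and overlap were tested on simulated data, and the calls were not. The simulated peaks lay where a single gene overlapped on their strand and had no conflicting gene names. Placement of peaks with conflicting names, overlapping genes or unknown strand was therefore not tested. Python 3.11.15, pandas 2.3.3, numpy 2.4.6 and SciPy 1.17.1 were used.

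The members and gene lists were chosen with earlier results of these data known. Named are the 8 genes; other macrophage genes gained or lost with at least 2 compounds, and the 2 of each list with the most peaks; and, for members with at least 12 peaks, the 3 genes with the nearest counts, of which some are not reported here. Spi1, Mitf, Grn, Lamp1, Fcgr1, Clec7a, Tyrobp, Adgre1 and Itgam were added after their values were seen. Alternatives were the nearest-gene column, gene spans alone, a median-score minimum, equal list length, no peaks over 500 bp, and an overlap of at least 0.5 of the shorter peak.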

Additional observations from a re-analysis of the deposited data

How the results depend on the processing

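Presence of Lyz2, Trem2 and Irf8 in each list was as reported under all alternatives run. For Trem2 in TBP at equal list length this rested on a peak tied at the cut and kept by file order. Placing peaks by RefSeq span alone, leaving out peaks over 500 bp and the stricter overlap kept every summary count within 1.5 times its reported value. By the nearest-gene column alone 1 member, Csf1r, was lost after TBP. With a minimum at each list's median score there were 15 member peaks in TBP and 17 in TCP, at 34 places, 22 of them in 1 list. Members gained numbered 1 after TBP and 1 after TCP, those with more peaks 2 after TBP and 3 after TCP, and those with fewer 1 after TBP; 13 other macrophage genes had a control peak, 5 transcription factors had more peaks after TCP and, of the lysosomal and secreted genes, 2 had fewer and 3 more, where 9 and 3 were reported. With equal list lengths there were 17 member peaks in control, 15 after TBP, 16 after TCP and 18 after TIP, so TCP no longer exceeded control. Members gained numbered 1 after TBP and 1 after TCP, lost 1 after TBP, with more peaks 2 after TBP and 2 after TCP, and with fewer 4 after TBP and 4 after TCP; 3 transcription factors had more peaks after TCP. Mpeg1 turned to a difference of −1 peak from control in both TBP and TCP. At that cut 6 member peaks were tied with others and taken in file order. They lay in Mpeg1 in control, in Mpeg1 and Trem2 in TBP, and in Csf1r and Cx3cr1 in TCP. Shares of all genes called under the median-score and equal-length settings are not given here. Both settings keep fewer peaks by construction; no other cause was tested. No paired analysis was possible because each condition has 1 library. Unknown depth limits any reading of an absent peak.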
